A study of Mus musculus with 8 samples.

Results

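The pi, theta, kappa, omega, zeta and microsomal glutathione transferases studied here are 10 genes, Gstp1, Gstp2, Gstt1, Gstt2, Gstt3, Gstk1, Gsto1, Gstz1, Mgst1 and Mgst3, out of 20738 genes measured in mouse liver. The genes were picked by symbol as a class, with earlier results of these data known, and all 10 were found, through 14 features (spots): 4 genes have 2 features and 6 have 1. The RNA was from livers of male mice of the outbred CD-1 stock. Of 8 arrays, 4 are from mice given NaPB, the sodium salt of phenobarbital, at 2500 ppm in the diet for 7 days, and 4 are from mice on the control diet (0 ppm) for the same time. No genetic change is named in the labels. The sample titles end in a different number for each array, but nothing says that these numbers stand for separate mice. The p-values therefore cover the spread between samples, which may be technical. In whole liver, fewer cells of a type and less RNA per cell cannot be told apart.

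Glutathione transferases join the tripeptide glutathione to electrophilic compounds, which makes them more soluble and ready for export from the hepatocyte. The cytosolic enzymes fall into classes by sequence, among them alpha, mu, pi, theta, omega and zeta. The kappa enzyme belongs to mitochondria and peroxisomes, and the microsomal enzymes are membrane proteins of an unrelated fold. Phenobarbital activates the nuclear receptor CAR in hepatocytes, and the transferases best known to respond to it in rodent liver are those of the alpha and mu classes.

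The highest ratios between the diets in this group were those of theta genes. Gstt3 was 6.37-fold higher on the NaPB diet and was the only member called (limma adjusted p = 0.0433). Gstt1 was 3.50-fold higher without passing over all arrays, and Gstt2, from the same gene cluster, differed by 1.13-fold. Both pi genes had lower mean levels on the NaPB diet, Gstp1 by 1.74-fold and Gstp2 by 1.49-fold, and neither passed. So 1 of 10 members rose, 9 did not pass the test and 0 were called lower. Over all genes, limma called 0.391% higher, 0.617% lower and 1.01% in either direction at an adjusted p below 0.05, and 3 members (Gstt3, Gstt1 and Gstp1) had an unadjusted p below 0.05, as did 10.1% of all genes. The median log2 difference of the members was 0.20, against 0.01 over all genes.

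The stretches of 250 bases before the annotated start of Gstt3 and Gstt1 are shown because these genes had the highest ratios of the group, and that of Mgst1 because it alone held the core letters of the antioxidant response element, the binding site of the regulator Nrf2. They are RefSeq sequences of GRCm38.p6, 5′ to 3′ on the strand of the gene: Gstt3 from chr10:75781423-75781672, minus strand, Gstt1 from chr10:75797732-75797981, minus strand, and Mgst1 from chr6:138140277-138140526, plus strand. Capitals mark the antioxidant response element core, found in Mgst1 on the opposite strand.
Gstt3: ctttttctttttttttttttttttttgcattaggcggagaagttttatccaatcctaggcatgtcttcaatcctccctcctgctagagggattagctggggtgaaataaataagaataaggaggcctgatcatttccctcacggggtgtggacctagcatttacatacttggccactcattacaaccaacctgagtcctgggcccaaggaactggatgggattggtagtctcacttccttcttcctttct
Gstt1: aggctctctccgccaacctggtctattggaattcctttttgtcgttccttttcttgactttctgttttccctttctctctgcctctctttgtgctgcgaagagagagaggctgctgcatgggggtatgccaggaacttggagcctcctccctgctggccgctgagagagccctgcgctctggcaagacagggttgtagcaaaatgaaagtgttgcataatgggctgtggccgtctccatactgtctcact
Mgst1: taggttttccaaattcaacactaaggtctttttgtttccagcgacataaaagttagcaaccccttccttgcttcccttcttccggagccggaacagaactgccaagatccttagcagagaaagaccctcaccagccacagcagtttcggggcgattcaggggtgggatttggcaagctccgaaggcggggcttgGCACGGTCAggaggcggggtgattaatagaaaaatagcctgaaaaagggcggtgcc

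Windows were at hand for 9 members, all but Gstt2. Each was searched on both strands for AGGTCA and AGTTCA, single-receptor sites of nuclear receptors such as CAR, for TGACNNNGC, the antioxidant response element core, for TATAAA and for GGGCGG, the GC box. The antioxidant core and AGGTCA read on the other strand share their first letters TGAC and could overlap, but did so in none of these windows. Neither Gstt3 nor Gstt1 held any of the 5 motifs. AGGTCA stood in 1 of the 9 windows (Gstk1), against 13.8% of 27025 windows of all genes, and AGTTCA in none, against 11.9%. TGACNNNGC was in 1 (Mgst1), against 10.1%, and TATAAA in none, against 13%. GGGCGG was in 7 of 9, against 32.9%. The GC content of the windows ran from 43.6% in Gstt3 to 63.2% in Gstp1, and was 52% in Mgst1. The absence of a motif says only that these letters are not in this window.

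The theta genes lie side by side on chromosome 10 in the order Gstt3, Gstt1, Gstt4 and Gstt2. Gstt3, a theta-class transferase, had intensities of 75.6, 78.6, 53.9 and 16.2 on NaPB replicates 1 to 4, against 8.82, 4.45, 13.2 and 6.07 on control replicates 1 to 4. All 4 NaPB arrays lay above all 4 control arrays, but NaPB replicate 4 was close to the highest control array. It was the 1 member without overlap; over all genes, the values of the diets were apart with NaPB higher for 2.72%, with NaPB lower for 4.31% and in either direction for 7.04%. The geometric mean intensity was 47.7 on the NaPB diet (log2 SD 1.07, n = 4) and 7.48 on the control diet (log2 SD 0.68, n = 4), a log2 difference of 2.67 ± 0.52 (SE; limma adjusted p = 0.0433). Without NaPB replicate 4 the log2 difference was 3.19 (limma adjusted p = 0.0053). In each of the 7 other fits with 1 array left out it was not called, with limma adjusted p from 0.0609 to 0.138 and log2 differences no lower than 2.42. With all 8 arrays shifted to the same median it was not called either (limma adjusted p = 0.0572).

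Gstt1 encodes the theta enzyme known for conjugating small halogenated hydrocarbons such as dichloromethane. Its intensities were 116, 98.7, 148 and 34.4 on NaPB replicates 1 to 4, against 36.4, 17.9, 22 and 27.1 on control replicates 1 to 4. NaPB replicates 1 to 3 were above every control array, whereas NaPB replicate 4 was below control replicate 1, so the diets overlapped. The geometric mean was 87.4 on the NaPB diet (log2 SD 0.93, n = 4) and 24.9 on the control diet (log2 SD 0.44, n = 4), a log2 difference of 1.81 ± 0.45 (limma adjusted p = 0.107). Without NaPB replicate 4 Gstt1 was called, at a log2 difference of 2.26 (limma adjusted p = 0.0103), and with quantile normalization of all arrays it was called at 1.69 (limma adjusted p = 0.0345). In the 7 other fits with 1 array left out the adjusted p was 0.116 to 0.288.

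Gstt2 encodes a theta enzyme known for activity towards sulfate esters. It had 4.04, 3.29, 2.67 and 1.57 on NaPB replicates 1 to 4, against 2.66, 1.94, 2.73 and 2.39 on control replicates 1 to 4. The diets overlapped, with the NaPB arrays holding both the highest and the lowest value, and the log2 difference was 0.18 ± 0.33 (limma adjusted p = 0.908). It was −0.01 without NaPB replicate 1. Gstt4, the theta gene between Gstt1 and Gstt2, was within 2-fold of the lowest value of the array on 4 of 8 arrays and gave a log2 difference of 0.41 ± 0.63 (limma adjusted p = 0.89, not called).

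**Figure D1:**
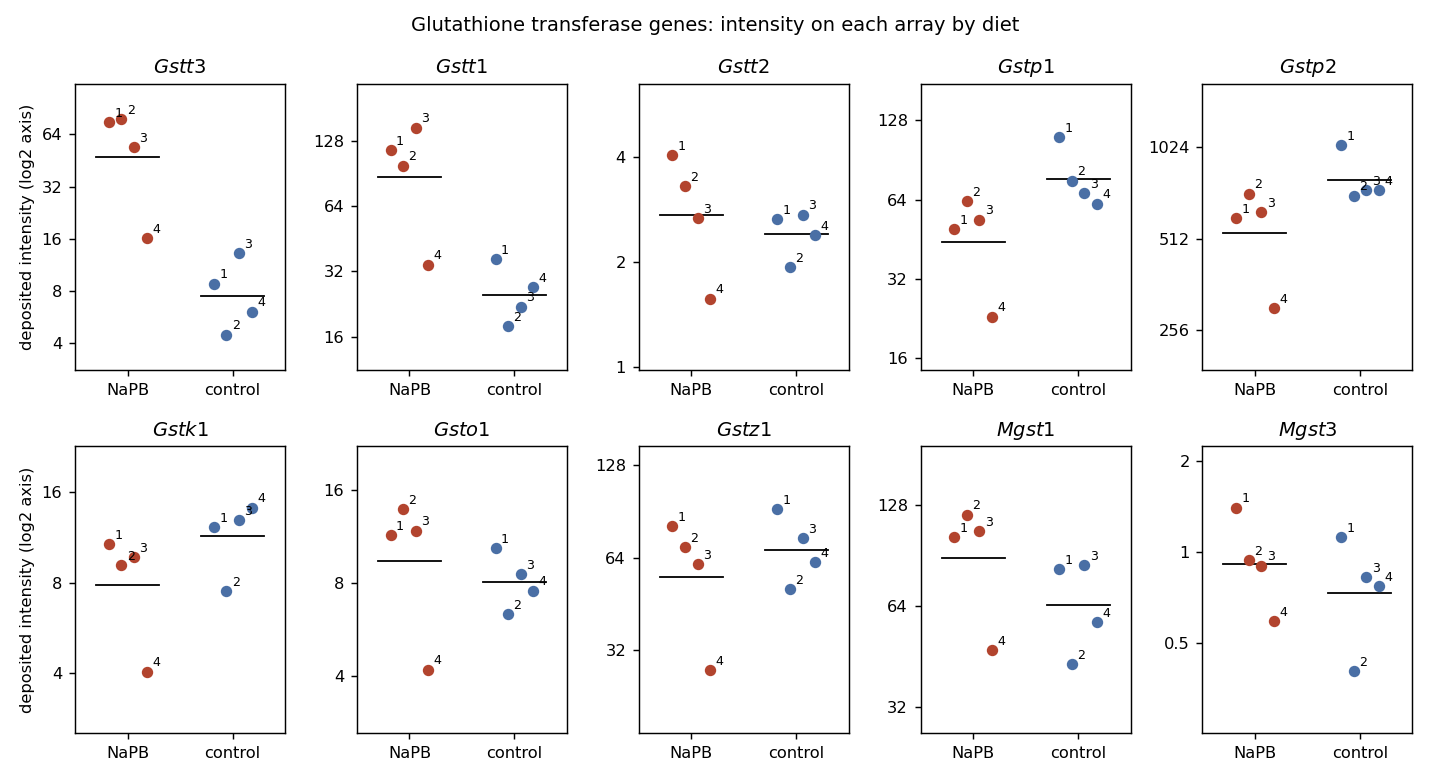
Deposited intensity of each of the 10 genes on every array (log2 axis, a separate range for each gene), with NaPB arrays left in red, control arrays right in blue, replicate numbers beside the points and a bar at the geometric mean of each diet. The diets do not overlap for Gstt3, and NaPB replicate 4 is the lowest NaPB array for all 10 genes.

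Because a called gene beside an uncalled one does not show that their responses differ, the gap between the log2 values of a pair on the same array was compared between the diets. Such a gap is free of a scaling that moves every gene of an array alike. It is not free of a shift that differs between bright and dim genes, and Gstt2 is dimmer than Gstt1 and Gstt3. The gap of Gstt3 over Gstt2 was 4.23, 4.58, 4.34 and 3.36 on NaPB replicates 1 to 4, against 1.73, 1.20, 2.27 and 1.35 on control replicates 1 to 4. The diets did not overlap, and NaPB replicate 4 stood clear of every control array. The difference in response between Gstt3 and Gstt2 was 2.49 log2 units (95% interval 1.62 to 3.36), with a two-sided exact permutation p of 0.0286, the smallest that 4 against 4 arrays allow. The intervals given for pairs are t intervals, separate from the permutation test and not adjusted for the number of pairs.

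For Gstt1 over Gstt2 the gap was 4.85, 4.91, 5.80 and 4.45 on NaPB replicates 1 to 4, against 3.78, 3.21, 3.01 and 3.50 on control replicates 1 to 4, again without overlap. The difference in response was 1.63 log2 units (95% interval 0.82 to 2.44, exact permutation p = 0.0286). Adjusted over the 5 pairs compared, both p-values were 0.0714 and did not pass; 3 pairs would have had to reach the smallest p for any to do so. With quantile normalization both pairs and Gstp1 with Gstp2 passed (exact permutation adjusted p = 0.0476). Between Gstt1 and Gstt3 it was −0.86 log2 units (95% interval −1.88 to 0.16; exact permutation p = 0.0857, adjusted 0.107).

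**Figure D2:**
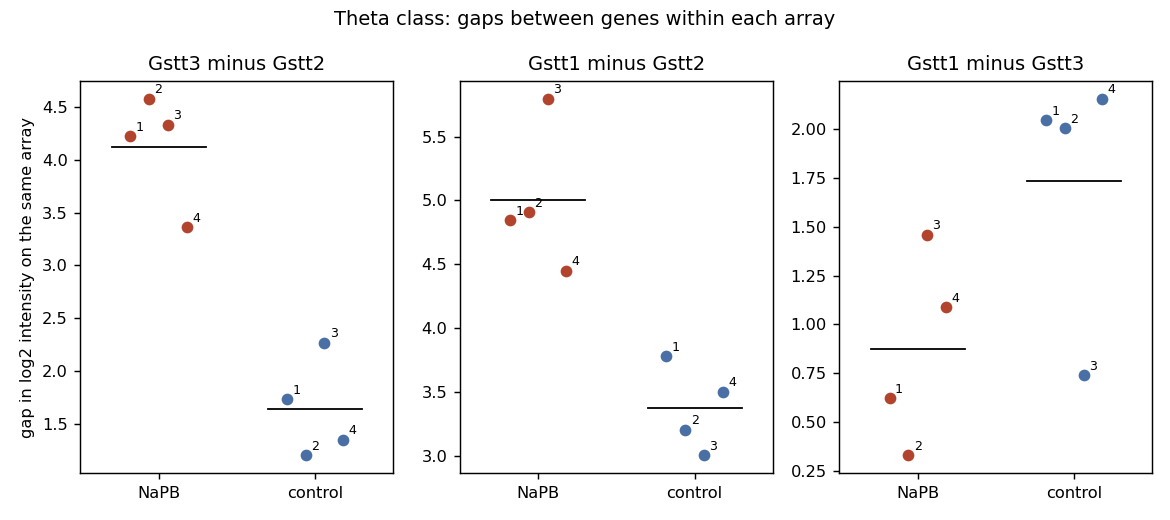
Gap in log2 intensity between pairs of theta genes on the same array, NaPB arrays left in red and control arrays right in blue, with replicate numbers and a bar at the mean of each diet. The gaps of Gstt3 and of Gstt1 over Gstt2 lie higher on all 4 NaPB arrays than on any control array, and those of Gstt1 over Gstt3 overlap.

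The pi genes Gstp1 and Gstp2 are neighbours on chromosome 19 and encode closely similar enzymes that conjugate small electrophiles. Their RNAs are alike, so a feature of one may take signal from the other, which was not tested. The 250 bases before their starts were identical at 207 of 265 aligned columns. Gstp1 had 49.4, 63, 53.8 and 23 on NaPB replicates 1 to 4, against 110, 75.6, 67.9 and 61.7 on control replicates 1 to 4. NaPB replicate 2 was just above control replicate 4, so the diets overlapped by that pair of arrays alone. The log2 difference was −0.80 ± 0.36 (limma adjusted p = 0.493), and −0.48 without NaPB replicate 4. The second feature of Gstp1 gave −0.57 ± 0.41.

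Gstp2 had 599, 721, 626 and 301 on NaPB replicates 1 to 4, against 1040, 710, 740 and 741 on control replicates 1 to 4. Only NaPB replicate 2 reached into the control range. The log2 difference was −0.58 ± 0.32 (limma adjusted p = 0.635), and −0.30 without NaPB replicate 4; its second feature gave −0.82 ± 0.42. All 4 pi features were thus lower on average on the NaPB diet, and none passed over all features. With 1 array left out, the log2 difference ran from −0.97 to −0.48 for Gstp1 and from −0.72 to −0.30 for Gstp2. Both genes stayed below 0 in each of the 22 other settings tried, but several of these, such as the other p thresholds, cannot change the estimate. The geometric mean over all arrays was 653 for the brighter Gstp2 feature and 74.7 for its second, against 58.4 and 49 for the Gstp1 features. The level of Gstp2 relative to Gstp1 thus depends on the feature. By the brighter features, the gap of Gstp1 to Gstp2 was −3.60, −3.52, −3.54 and −3.71 log2 units on NaPB replicates 1 to 4, against −3.23, −3.23, −3.45 and −3.59 on control replicates 1 to 4. This difference of −0.22 (95% interval −0.45 to 0.02) did not pass (exact permutation p = 0.0857, adjusted 0.107), and it was 0.02, with the direction turned, when both features of each gene were averaged (exact permutation adjusted p = 0.743).

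The microsomal genes did not pass. Mgst1 encodes a transferase and peroxidase of the endoplasmic reticulum and outer mitochondrial membrane. Its brighter feature had 103, 120, 107 and 47.2 on NaPB replicates 1 to 4, against 82.4, 42.9, 84.6 and 57.2 on control replicates 1 to 4. NaPB replicates 1 to 3 lay above all control arrays and NaPB replicate 4 below all but control replicate 2. The log2 difference was 0.47 ± 0.37 (limma adjusted p = 0.766), 0.77 without NaPB replicate 4 (limma adjusted p = 0.293), and 0.33 ± 0.32 by its second feature.

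Mgst3 encodes a membrane transferase with glutathione peroxidase activity. Its brighter feature had 1.40, 0.94, 0.90 and 0.59 on NaPB replicates 1 to 4, against 1.12, 0.40, 0.82 and 0.77 on control replicates 1 to 4. Values of the diets were mixed, and the log2 difference was 0.32 ± 0.38 (limma adjusted p = 0.852), with 0.25 ± 0.32 by the second feature. The difference in response between Mgst1 and Mgst3 was 0.14 log2 units (95% interval −0.46 to 0.75, exact permutation p = 0.571).

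Of the single-gene classes none passed. Gsto1, the omega enzyme, which reduces dehydroascorbate and methylated arsenic compounds, had 11.5, 13.9, 11.8 and 4.19 on NaPB replicates 1 to 4, against 10.4, 6.35, 8.56 and 7.58 on control replicates 1 to 4. NaPB replicates 1 to 3 were above every control array and NaPB replicate 4 was below every control array. The log2 difference was 0.22 ± 0.39 (limma adjusted p = 0.907), and 0.61 without NaPB replicate 4.

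Gstk1, the kappa enzyme, had 10.7, 9.12, 9.70 and 4.05 on NaPB replicates 1 to 4, against 12.2, 7.49, 12.9 and 14.2 on control replicates 1 to 4. Control replicate 2 lay among the NaPB arrays, and the log2 difference of −0.53 ± 0.37 did not pass (limma adjusted p = 0.732).

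Gstz1 encodes maleylacetoacetate isomerase, the penultimate enzyme of tyrosine breakdown. It had 81.1, 69.1, 60.9 and 27.5 on NaPB replicates 1 to 4, against 92.2, 50.4, 74 and 61.8 on control replicates 1 to 4. NaPB replicates 1 to 3 lay inside the control range. The log2 difference was −0.29 ± 0.37 (limma adjusted p = 0.861), and it was 0.04 without NaPB replicate 4 and 0.07 with array weights. Of 7 measured genes of phenylalanine and tyrosine breakdown none passed, none had an unadjusted limma p below 0.05 (10.1% of all genes), and the median log2 difference was −0.17; Tat, tyrosine aminotransferase, had the smallest p with −0.40 ± 0.33.

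**Figure D3:**
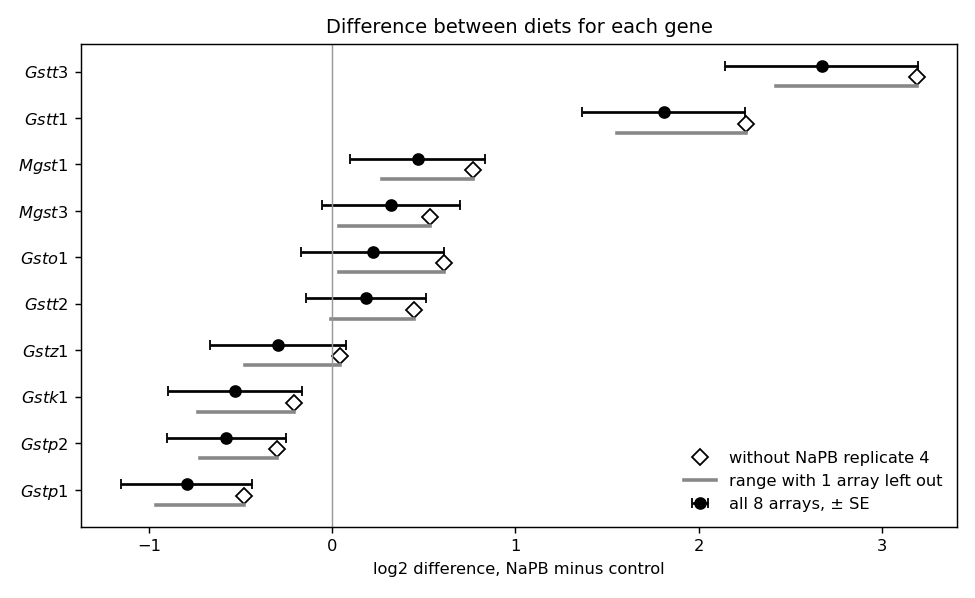
Difference between the diets for each gene (log2, NaPB minus control): filled circles and bars give the estimate with all 8 arrays and its limma SE, open diamonds the estimate without NaPB replicate 4, and grey lines the range over the 8 fits with 1 array left out. Gstt3 and Gstt1 stand at 2.67 and 1.81, and each of the other 8 genes lies between −0.80 and 0.47.

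NaPB replicate 4 was the lowest NaPB array for all 10 genes, against 43.7% of all genes and 89.3% of the 1431 genes with a geometric mean intensity of at least 10, as 6 of the members have. Its log2 values lay below the mean of NaPB replicates 1 to 3 by a median of −0.89 over those 1431 genes, −0.20 over all genes and −1.27 over the members, with Gstt3 at −2.08, Gstt1 at −1.80 and Mgst3 at −0.84. Relative to the control mean of each gene, the members averaged 0.75, 0.71, 0.59 and −0.67 log2 units on NaPB replicates 1 to 4, against 0.37, −0.46, 0.15 and −0.06 on control replicates 1 to 4. The ratio of the 99th to the 75th percentile of all features was 62.3 there, 107 to 125 for NaPB replicates 1 to 3, and 65.8 to 124 for the control diet. Control replicate 1 and NaPB replicate 4 were the extremes of the leading principal component over all genes (33.5% of the variance) and had the lowest array weights, 0.308 and 0.313. Without both arrays, a setting added after the data were seen, Gstt3 and Gstt1 were called.

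**Figure D4:**
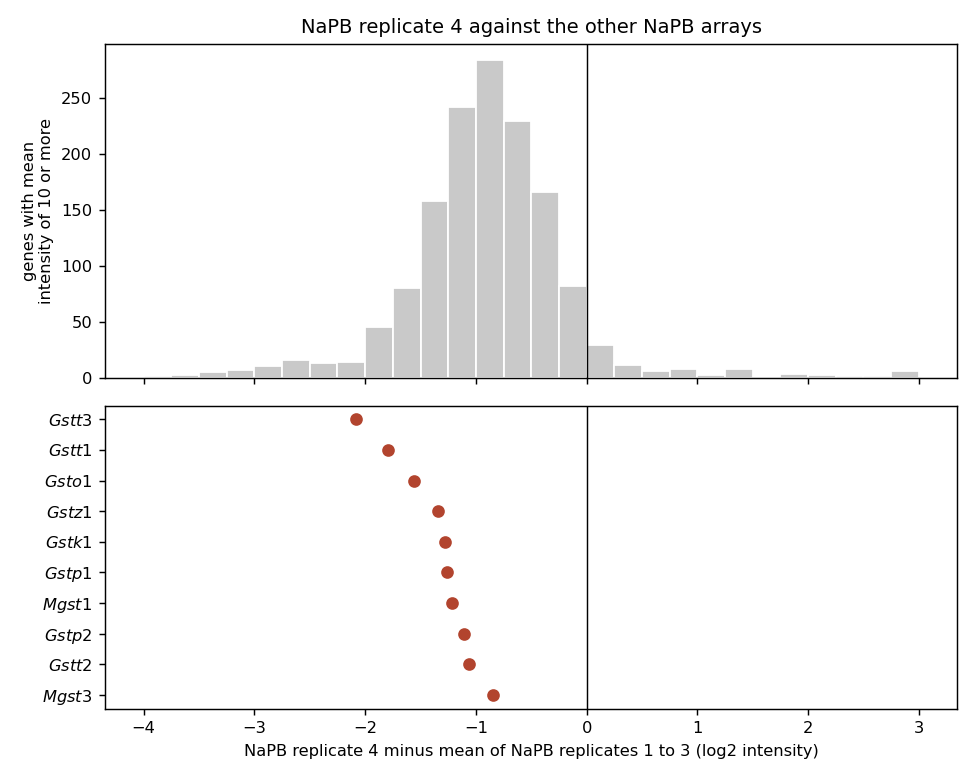
Log2 intensity of NaPB replicate 4 minus the mean of NaPB replicates 1 to 3: above, the number of genes with a geometric mean intensity of at least 10 in bins of 0.25 (values beyond the axis are counted in the end bins), below, each of the 10 glutathione transferase genes. All 10 lie left of 0, between −2.08 for Gstt3 and −0.84 for Mgst3.

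All 8 hepatocyte markers (Alb, Apoa1 and others) were detected, with a summed intensity of 5311 to 7662 on the NaPB diet and 6528 to 11308 on the control diet. None was called and 5 of 8 had a log2 difference below 0 (median −0.38). The largest falls were those of Alb (geometric mean 191 on the NaPB diet and 452 on the control diet) and Apoa1 (201 on the NaPB diet and 402 on the control diet). Both were lower on each NaPB array than on any control array, as were 4.31% of all genes. Ttr, Ambp and Fgb lay above 0, at log2 differences of 0.06, 0.11 and 0.07. Markers of Kupffer cells and macrophages summed to 21.4 to 25 on NaPB arrays and 29.5 to 31.8 on control arrays; none of 8 was called, 7 had a log2 difference below 0, and Timd4 was within 2-fold of the lowest value on every array. Cholangiocyte markers summed to 6.47 to 13.5 on NaPB arrays and 4.43 to 6.86 on control arrays. Of these 8 markers 2 were called, Prom1 higher and Cldn4 lower, against 1.01% of all genes. Prom1 was the largest part of the sum on NaPB replicates 1 to 3. It had 8.14, 5.09, 7.82 and 0.69 on NaPB replicates 1 to 4, against 0.17, 0.04, 0.13 and 0.06 on control replicates 1 to 4. Of 5 neutrophil markers 1 was called, S100a8, against 1.01% of all genes, and 3 had a log2 difference above 0. The uncalled markers stood at 0.84 for S100a9, 0.001 for Csf3r, −0.08 for Cxcr2 and −0.84 for Mpo. S100a8 had 46.3, 126, 71 and 2.02 on NaPB replicates 1 to 4, against 0.42, 0.31, 0.25 and 0.46 on control replicates 1 to 4. The neutrophil sum was 141 to 342 on NaPB arrays and 140 to 253 on control arrays. Most of it was Csf3r, with a geometric mean of 172 on the NaPB diet and 172 on the control diet. The markers named in this paragraph were picked after their values were seen. No endothelial or stellate marker was called (8 measured each), with sums of 119 to 196 and 24.3 to 46.5 on NaPB arrays against 95.6 to 196 and 37.8 to 60.6 on control arrays. The part of any of these cell types in the values of the transferase genes was not tested.

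Of 47 genes that make, use and clear glutathione, 1 was called (2.13%), against 1.01% of all genes. An unadjusted limma p below 0.05 was found for 10.1% of all genes, and a log2 difference above 0 for 51.2%. Of 12 genes of glutathione synthesis and cysteine supply none passed (1 at an unadjusted limma p below 0.05; median log2 0.07), and Cbs, of cysteine synthesis, had the smallest p at −0.99 ± 0.38. Of 17 glutathione peroxidases and redox partners none passed (4 unadjusted), 14 were above 0 and the median log2 difference was 0.36. Glrx, glutaredoxin, had the smallest p there with 3.92, 4.91, 3.75 and 1.61 on NaPB replicates 1 to 4, against 1.68, 0.97, 1.97 and 1.24 on control replicates 1 to 4. Without NaPB replicate 4, a fit that called 1.76% of all genes, 3 of these 17 rose: Glrx, the thioredoxin gene Txn1 and the glutaredoxin gene Glrx5, at log2 differences of 1.56, 1.58 and 1.43 (limma adjusted p = 0.0411, 0.03 and 0.0421).

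Of 18 genes of conjugate export, breakdown and mercapturate formation, 1 rose and none fell, with a median of 0.01. The gene that rose was Abcc4, an efflux pump, with 1.45, 1.31, 1.02 and 0.25 on NaPB replicates 1 to 4, against 0.19, 0.14, 0.10 and 0.12 on control replicates 1 to 4 (log2 2.65 ± 0.52, limma adjusted p = 0.0421). Without NaPB replicate 4, the efflux pump genes Abcc4, Abcc2 and Abcc3 rose (3.23, 1.64 and 1.45) and Chac1, which encodes a glutathione-degrading enzyme, was called lower; in each other fit with 1 array left out none of the 18 passed. Chac1 had 0.04, 0.06, 0.08 and 2.23 on NaPB replicates 1 to 4, against 0.43, 0.18, 0.58 and 0.44 on control replicates 1 to 4. The array left out thus held its highest value, 2 of the other NaPB arrays were within 2-fold of their lowest value, and with all arrays it was not called (−1.36 ± 1.05, limma adjusted p = 0.759). Of 12 other pi, theta, omega and membrane-family genes and relatives none passed, and the median was 0.08. An unadjusted limma p below 0.05 was found for 2 of them, against 10.1% of all genes. Gsto2, the second omega gene, had the smallest p with 0.05, 0.06, 0.14 and 0.10 on NaPB replicates 1 to 4, against 0.22, 0.26, 0.25 and 0.24 on control replicates 1 to 4 (log2 −1.61 ± 0.35, limma adjusted p = 0.0628). It was lower on every NaPB array than on any control array, as were 4.31% of all genes, and 2 NaPB arrays were within 2-fold of their lowest value.

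Among the 11 measured alpha and mu transferases 7 rose and none fell (Gsta1, Gsta2, Gstm1, Gstm2, Gstm3, Gstm4 and Gstm5), with a median log2 difference of 2.49. Gstt3, at 2.67, lay within the range of these 7, which ran from 2.42 for Gstm4 to 5.47 for Gstm3. Among 10368 other genes brighter than the median, those whose log2 values had the highest Pearson correlation with Gstt3 over the 8 arrays were Xpot, a tRNA export factor (r = 0.995), Ranbp2, a nuclear pore protein (r = 0.990), and Prelid2 (r = 0.989). The points share the arrays, their scaling and the low values of NaPB replicate 4, and the correlations are a description. Of these genes Prelid2 was called, at a log2 difference of 1.93 (limma adjusted p = 0.0252), and Xpot and Ranbp2, at 1.11 and 0.57, were not (limma adjusted p = 0.163 and 0.472).

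**Figure D5:**
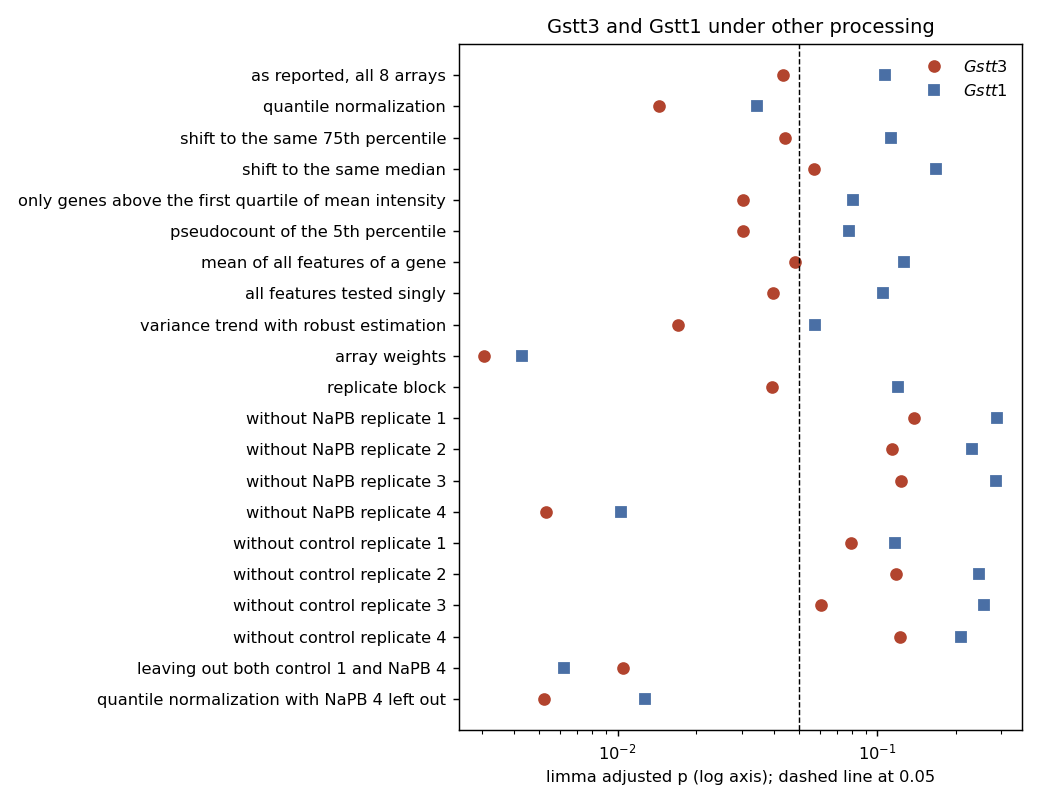
Adjusted p from limma (log axis) for Gstt3 (circles) and Gstt1 (squares) with all 8 arrays and under each other normalization, filter, model and set of arrays, with a dashed line at the threshold of 0.05. Gstt3 lies left of the line with all arrays and right of it with arrays shifted to the same median and in each fit that leaves out 1 array other than NaPB replicate 4, and Gstt1 lies left of it with quantile normalization, with array weights and wherever NaPB replicate 4 is left out.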

How the data were processed

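Liver RNA of male CD-1 mice was hybridised to one-colour (Cy3) Agilent arrays, quantified with Agilent Feature Extraction 10.7 per the submitters' processing notes. The authors deposited 1 linear spot intensity per feature and array. The 75th percentile lay between 0.952 and 0.974 on every array, so the authors had scaled them; how the background was corrected and spots were flagged was not given in the sources used here. Of 62976 features, 31465 carried 1 gene symbol, updated through RefSeq tables of GRCm38.p6, which gave 20738 genes.

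Intensities were taken as log2 with no pseudocount or further scaling. The brightest feature by mean stood for each gene. Diet alone entered the model, fitted over all genes with limma 3.58.1 (R 4.3.3), two-sided, with Benjamini-Hochberg adjustment and a threshold of 0.05. Differences between genes of 1 class were tested by exact permutation over the 70 splits of the arrays. Their 95% intervals do not come from that test. They are t intervals with a pooled variance, which take the gaps as normally distributed, and are not adjusted for the 5 pairs. The genes named are all 10 members, and of each pathway list the called genes and the one with the smallest p; list genes called only without NaPB replicate 4, Gstt4 as a neighbour, and markers were named after their values were seen. The members and lists were chosen with earlier results of these data known. Alternatives were 3 normalizations, a filter on dim genes, a pseudocount, the mean of all features, all features tested singly, a variance trend, weights for arrays, a replicate block, leaving out each array in turn, and adjusted p thresholds of 0.01 and 0.1. The model was also run on simulated independent values with known changes. No simulated array deviated from the rest, so that run does not cover arrays such as NaPB replicate 4. Same-numbered arrays of the diets gave correlations of their deviations from the diet means of 0.23, −0.29, 0.04 and 0.23, so the numbers were not taken to pair the samples. Figures were made with Python 3.11.15 and matplotlib 3.10.9.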

Additional observations from a re-analysis of the deposited data

Results flagged for a closer look

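Within each diet, the highest or lowest of the 4 arrays was tested for its distance from the others on the log2 scale for each of the 10 genes, 20 groups in all, of which chance marks about 1 in 20. NaPB replicate 4 lay far below the other NaPB arrays for Gsto1 (4.19 against 11.5 to 13.9, a gap of 0.839 of the whole range), Mgst1 (47.2 against 103 to 120, 0.834) and Gstk1 (4.05 against 9.12 to 10.7, 0.832). On the control diet, replicate 1 lay above the others for Gstp2 (1040 against 710 to 741, a gap of 0.889 of the range). The same distance was passed by 8.66% of all genes on the NaPB diet and 6.49% on the control diet. With NaPB replicate 4 as the low array it was passed by 5.27% of all genes. That share was 19.3% among the 1431 genes with a mean of at least 10. Mgst1 is among those, whereas Gsto1 and Gstk1 have geometric means of 8.73 and 9.47.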

How the results depend on the processing

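Over the 22 other settings, 417 of 493 values kept their side of the threshold, or moved by no more than 1.5 times for a count. Several settings, such as the other p thresholds, cannot change an estimate, so this total does not measure how firm the calls are. Gstt3 was called in 13 of the 22 settings and Gstt1 in 5. Uncalled values that changed sign were Gstz1 without NaPB replicate 4, with array weights and without both control replicate 1 and NaPB replicate 4 (0.04, 0.07 and 0.19), Gstt2 without NaPB replicate 1 (−0.01), the difference in response of Gstp1 and Gstp2 with all features averaged (0.02), and that of Mgst1 and Mgst3 with quantile normalization without NaPB replicate 4 (−0.14). No member was called lower in any setting, and no called value changed sign. With 1 array left out, the number of members called ran from 0 to 2 (1 with all arrays), the genes called in the whole table from 88 to 365 (209), the export and mercapturate genes from 0 to 4 (1), the redox genes from 0 to 3 (0) and the other pi, theta, omega and membrane-family genes from 0 to 1 (0); the highest counts came without NaPB replicate 4, except that of the last list, which came without NaPB replicate 3. The difference in response ran from −0.29 to −0.17 for Gstp1 and Gstp2, from 1.36 to 1.81 for Gstt1 and Gstt2 and from −2.74 to −2.34 for Gstt2 and Gstt3, all 3 passing without control replicate 4 alone. Quantile normalization called 2 members, 328 genes (30.5% of them higher, against 38.8% without it), 1 synthesis gene and 1 gene of the other pi, theta, omega and membrane-family list, and gave −0.44, 1.57 and −2.47 for these 3 pairs, which passed. With NaPB replicate 4 left out as well, it called 2 members, 607 genes, and 1, 5, 5 and 1 of the synthesis, export, redox and other family genes, with −0.47, 1.59 and −2.59 for the pairs. Shifting arrays to the same median called 0 members (Gstt3 limma adjusted p = 0.0572), 111 genes and 0 export genes. Array weights called 2 members, 812 genes, and 3, 3 and 1 of the export, redox and other family genes. The replicate block called 135 genes and left the members' calls as they were (Gstt3 limma adjusted p = 0.0394). A threshold of 0.01 gave 0 members, 58 genes and 0 export genes, and one of 0.1 gave 364 genes and 1 other family gene. Without both control replicate 1 and NaPB replicate 4, chosen after seeing the data, 2 members, 570 genes, 5 export genes and 5 redox genes were called. Fits that leave arrays out have less to estimate the spread from, and among them some called fewer and some more genes than the fit to all arrays. The cause of these shifts was not tested. The number of arrays limits the precision.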
